A study of Mus musculus with 8 samples.

Results

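The Ras association domain family was read from every probe whose gene symbol in the array table was Rassf1, Rassf2, Rassf3, Rassf4, Rassf5, Rassf7 or Rassf8. These 7 genes had 14 of the 25697 probes of the table and 7 of its 18138 gene symbols. Of the 14 probes, 8 probes of 6 genes passed the filter on dim probes (detection p-value under 0.01 on 1 or more arrays), and 5 were detected on all 8 arrays. Rassf8 was the member with no detected probe.

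The study asked what moR-21, a microRNA offset RNA cut from the miR-21 precursor next to the mature microRNA, does to gene expression in vascular smooth muscle cells. Primary mouse aortic smooth muscle cells, grown out from explants of several mouse aortas and kept in charcoal-treated serum before use, were transfected with the RNAiMAX lipid reagent. The control group was given a scrambled oligonucleotide and the other group a synthetic moR-21 mimetic, both at 5 nM, and total RNA was taken after 48 h for Illumina mouse expression arrays. Each group had 3 samples on 4 arrays. Control 1 and moR-21 sample 3 each had arrays titled replicate A and B. These were taken as repeats of the same sample, and their values were averaged. No strain, age or genotype is given in the labels, and the source and cell type labels say aortic smooth muscle cells whereas the sample descriptions write AoECs. Nothing says that the samples of a group came from separate cultures or animals, so the p-values measure the spread between these samples, which may be technical.

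The Rassf proteins carry a Ras association domain, the fold with which effectors bind active GTPases of the Ras and Rap kind, and they have no enzyme activity of their own. In the classical members (Rassf1 to Rassf5 of those measured here) this domain lies in the C-terminal part and is followed by a SARAH domain, a helical hook that pairs with the same hook on the Hippo pathway kinases Mst2 (gene Stk3) and Mst1 (gene Stk4). The N-terminal members, of which Rassf7 and Rassf8 belong to the set read here, carry the Ras association domain at the opposite end and lack the SARAH hook. Several members are silenced by promoter methylation in tumours and are studied as tumour suppressors.

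The RNA that was delivered lies at the base of the Mir21a hairpin, on its 5′ side. The sequences below are shown because the region of moR-21 and the mature microRNA are neighbours in the hairpin and yet share no seed. They were taken from RefSeq, assembly GRCm38.p6, and are written 5′ to 3′. The first line gives the hairpin bases that precede the mature microRNA, with the core GUACC in capitals, the letters common to the leading seed windows that the study considered for moR-21. The second line gives miR-21a-5p, with its seed, bases 2 to 8, in capitals.
Mir21a hairpin 5′ of miR-21a-5p: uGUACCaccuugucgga
miR-21a-5p: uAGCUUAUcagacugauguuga
The offset stretch covers 17 bases at chr11:86584142-86584158 on the minus strand, and miR-21a-5p covers the adjoining 22 bases at chr11:86584120-86584141 on the same strand. The core GUACC occurred 1 time in the 92 bases of the hairpin, at bases 2 to 6, and 0 times in miR-21a-5p. The microRNA's seed AGCUUAU occurred 0 times in the offset stretch. These are matches of letters only. In the seed windows of the study the core lies further from the 5′ end of moR-21 than in the printed stretch. The mimetic therefore starts upstream of the printed stretch, and its other end was not compared.

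Rassf3 was lower in all moR-21 samples and was the 1 member called changed, and the other 5 tested members stayed short of the call. A probe was called when its fold change was over 1.3 (0.38 on the log2 scale) and its adjusted p under 0.002 in limma, the study's cutoffs. By this rule 448 of all 11651 tested probes were called lower (3.85%) and 363 were called higher (3.12%). Of the 8 tested Rassf probes, 1 was called lower and 0 were called higher, while 6 had positive and 2 had negative log2 fold changes. At each gene's brightest detected probe, 5 of the 6 tested members had an unadjusted p under 0.05 in limma, as did 44.6% of all tested genes. An adjusted p under 0.05 was reached by 4 of the 6 members and by 36.1% of all tested genes. The median log2 fold change of the 6 genes was 0.09, against 0.01 over all 8727 tested genes, whose median absolute log2 fold change was 0.10.

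Whether the samples of the groups overlap is a second way to read the same probes. All 3 moR-21 samples lay below all 3 control samples at 2 of the 8 Rassf probes, and this held for 21.2% of all tested probes. They lay above all 3 control samples at 4 of the 8 Rassf probes, and this held for 23.7% of all tested probes. One of these probes, ILMN_2686244 of Rassf4, entered the tested set through the moR-21 arrays alone, so its place among them is no result. Of the 7 Rassf probes detected in both groups, 2 lay below and 3 lay above without overlap, and 5 had positive log2 fold changes. The smallest p that an exact two-sided permutation test of 3 against 3 samples can give is 0.1, so no probe could pass 0.05 by its sample order alone.

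**Figure D1:**
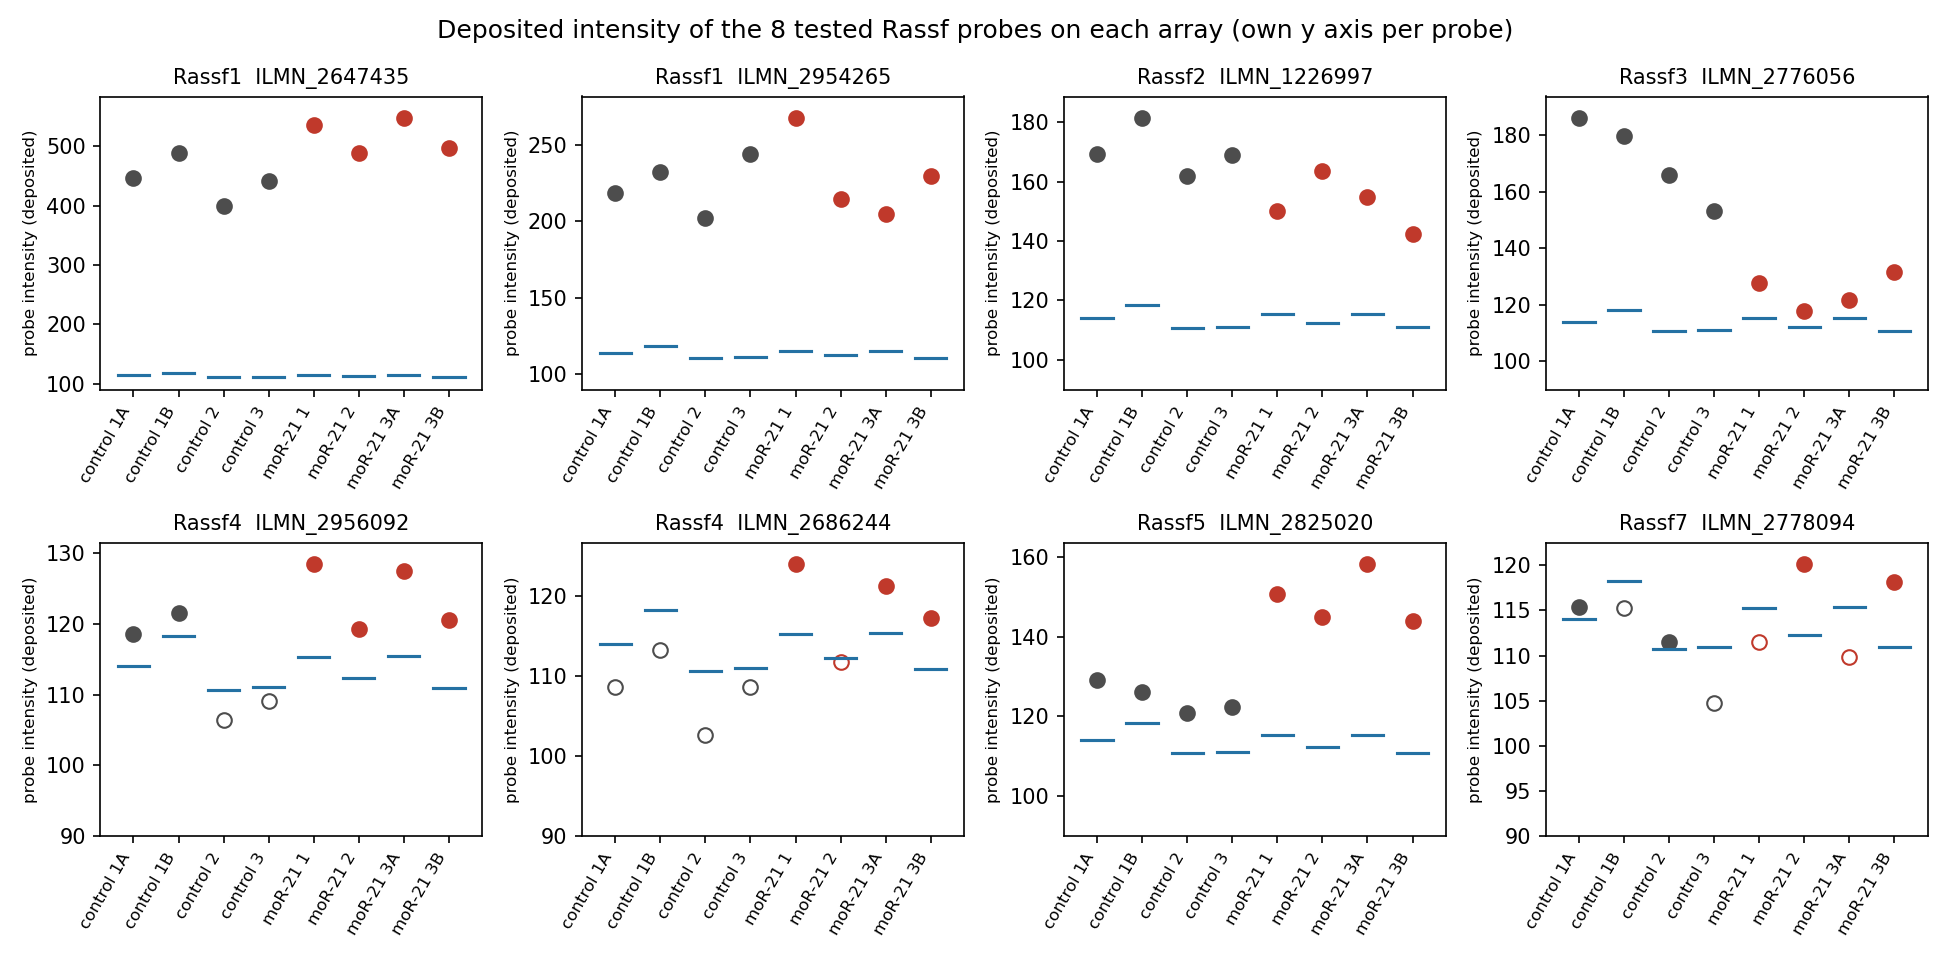
Deposited intensity (arbitrary units, own linear axis per panel starting at 90) of the 8 tested Rassf probes on each of the 8 arrays, with controls in grey and moR-21 in red, filled points for arrays with a detection p-value under 0.01, open points for the others, and a blue dash for the lowest intensity among detected probes of that array. Rassf3 was at 153.1 to 186.0 on the control arrays and at 117.7 to 131.5 on the moR-21 arrays, near the blue dashes, while the Rassf5 arrays were ordered the other way.

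Rassf3 is a classical member and a reported partner of the p53 regulator Mdm2. Its single probe, ILMN_2776056, had deposited intensities of 186.0 and 179.6 on control arrays 1A and 1B, 165.8 on control 2 and 153.1 on control 3. On the moR-21 arrays the probe read 127.8 in sample 1, 117.7 in sample 2, and 121.7 and 131.5 on arrays 3A and 3B. Every moR-21 array was dimmer than every control array, and the moR-21 arrays sat close to the limit of detection, which lay at 110.7 to 118.3 across the arrays.

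After quantile normalization Rassf3 was at log2 intensities of 7.45, 7.46 and 7.28 in the control samples and 6.97, 6.90 and 6.99 in the moR-21 samples. The lowest control, sample 3, stayed above the highest moR-21 sample. The means were 7.40 ± 0.101 and 6.95 ± 0.05 (SD, n = 3 each), a log2 fold change of -0.44 (SE 0.0556, 95% confidence interval -0.56 to -0.32, limma adjusted p = 3.04e-05), so that Rassf3 was 1.36-fold lower. In cells measured in bulk, fewer cells that express a gene and less of its RNA per cell cannot be told apart. The repeat arrays of a sample differed by -0.15 (1B minus 1A) and 0.16 (3B minus 3A) on the log2 scale at this probe, against an SD of 0.0914 and 0.103 over all tested probes. With array A of each repeated sample alone Rassf3 was at -0.50, and with array B alone at -0.39, both called.

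The size of the Rassf3 difference turned on how background was treated. With normexp background correction, which subtracts a modelled background and so stretches dim probes, the log2 fold change was -1.06 (limma adjusted p = 0.000268). Leaving out each sample in turn moved it between -0.50 and -0.41. By its log2 fold change Rassf3 ranked 277 of 8727 genes from the largest fall. The study picked Rassf3 as a candidate target of moR-21 from seed predictions together with these arrays. Its call here is therefore no independent evidence of its direction, and the array value rests on 1 probe. Separately, the study measured the mRNA of its candidates by RT-qPCR and reported that moR-21 lowered all of them, Rassf3 included.

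Rassf5 (also called Nore1 or Rapl), a classical member that binds Ras and Rap1 and is known from lymphocyte adhesion, had the most positive log2 fold change of the 6 tested members. Its probe ILMN_2825020 read 129.2 and 126.1 on control arrays 1A and 1B, 120.9 on control 2 and 122.4 on control 3. It read 150.8, 145.1, 158.2 and 144.1 on moR-21 arrays 1, 2, 3A and 3B. All moR-21 arrays were brighter than all control arrays, and the control arrays lay just over the limit of detection.

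The normalized log2 values of Rassf5 were 6.95, 6.97 and 6.96 in the controls and 7.20, 7.21 and 7.24 with moR-21, groups that did not overlap and that spread little. The log2 fold change was 0.26 (SE 0.0438, 95% confidence interval 0.16 to 0.35, limma adjusted p = 0.000434), or 1.19-fold, below the fold cutoff. It was called in 1 of 19 alternatives, normexp background correction, in which it was 0.66 (limma adjusted p = 0.000226). In all other alternatives it stayed under the cutoff, and without any single sample it was between 0.24 and 0.27.

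Rassf1, the best known member, binds the Mst kinases and microtubules and is made as several isoforms from more than 1 promoter. Its brighter probe, ILMN_2647435, was at normalized log2 intensities of 8.78, 8.76 and 8.81 in the controls and 9.03, 9.01 and 9.05 with moR-21. The log2 fold change was 0.25 (SE 0.0447, 95% confidence interval 0.15 to 0.34, limma adjusted p = 0.000658), or 1.19-fold, again under the cutoff for a call, with no overlap between the groups. The dimmer probe ILMN_2954265 was at 7.74, 7.75 and 7.96 in the controls and 8.01, 7.80 and 7.77 with moR-21, where the groups overlapped. Its log2 fold change was 0.04 (95% confidence interval -0.11 to 0.19, limma adjusted p = 0.723). The probes of Rassf1 thus gave different values, their mean was 0.14 (limma adjusted p = 0.045), and which isoforms each one reads was not analysed here.

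Rassf2, a K-Ras binding member that also pairs with the Mst kinases, was at log2 intensities of 7.39, 7.43 and 7.43 in the controls and 7.20, 7.39 and 7.22 with moR-21 (probe ILMN_1226997). The moR-21 sample 2 lay just under the lowest control, and the other moR-21 samples lay clearly below. The log2 fold change of Rassf2 was -0.15 (SE 0.0549, 95% confidence interval -0.27 to -0.03) and missed the call (limma adjusted p = 0.053). Without moR-21 sample 2 it was -0.21 (limma adjusted p = 0.00589), and with normexp background correction -0.31 (limma adjusted p = 0.0639), neither of them a call. The other 2 probes of Rassf2 were not detected on any array.

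Rassf4, another classical member with Ras binding and a SARAH hook, was at the limit of detection. Its probe ILMN_2956092 was detected on 2 of 4 control arrays and 4 of 4 moR-21 arrays, with log2 values of 6.87, 6.77 and 6.80 against 6.98, 6.92 and 6.96. The groups did not overlap, and the log2 fold change was 0.14 (SE 0.0469, 95% confidence interval 0.04 to 0.24, limma adjusted p = 0.0363), not called. Its probe ILMN_2686244 was detected on 0 control arrays and 3 moR-21 arrays, so it passed the filter through the moR-21 group alone and the controls give only a bound. Set against the lowest detected signal of the control arrays, the moR-21 mean of 6.88 at that probe was at least 1.04-fold higher. This bound is a description and was not tested. The other 2 probes of Rassf4 were not detected. With normexp background correction Rassf4 was 0.46 (limma adjusted p = 0.00926), also not called.

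The N-terminal members gave little signal. Rassf7, which has been linked to mitosis and to restraint of JNK signalling, was detected by probe ILMN_2778094 on 2 arrays of each group. Its log2 values were 6.82, 6.85 and 6.74 in the controls and 6.77, 6.93 and 6.84 with moR-21, fully interleaved. The log2 fold change was 0.04 (95% confidence interval -0.07 to 0.16, limma adjusted p = 0.571), so a change of Rassf7 was not detectable at this signal, and the interval lay within the fold cutoff. With normexp background correction it was 0.15 (limma adjusted p = 0.481). Rassf8, a member linked to adherens junctions, had 1 probe, detected on 0 of 8 arrays, and no fold change is given for it.

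The 6 undetected probes of the family had deposited intensities from 88.3 to 106.5, and the smallest detection p-value among them was 0.0539. Rassf9 and Rassf10, N-terminal family genes outside the set, each had 1 probe that was not detected on any array.

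**Figure D2:**
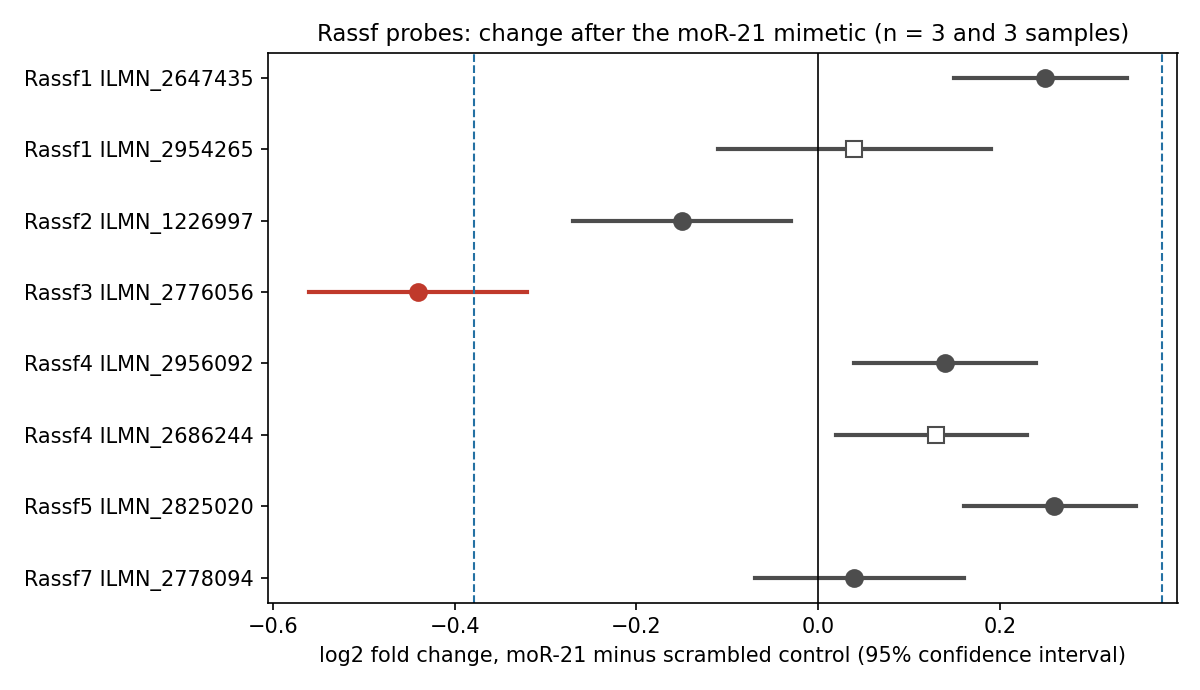
Log2 fold change (moR-21 minus scrambled control, 3 samples each) of the 8 tested Rassf probes, with lines for the 95% confidence interval from limma, circles for the brightest detected probe of a gene, open squares for a dimmer probe, red for the called probe and dashed lines at the fold cutoff of 1.3. Rassf3 at -0.44 lies beyond the cutoff, and the Rassf5 probe at 0.26 and the brighter Rassf1 probe at 0.25 lie inside it.

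Ordered by log2 fold change at the brightest detected probe, the tested members ran from Rassf3 at -0.44 and Rassf2 at -0.15 through Rassf7 at 0.04 and Rassf4 at 0.14 to Rassf1 at 0.25 and Rassf5 at 0.26. The confidence intervals of Rassf3 and Rassf2 did not overlap. Those of Rassf2, Rassf7, Rassf4, Rassf1 and Rassf5 overlapped from each neighbour to the next, and the differences between members were not tested. No member changed direction under any alternative that was run.

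The genes around the family in Ras and Hippo signalling were described from lists of 131 symbols, 109 of them with a probe and 84 of them tested. Of these 84 genes, 6 were called lower and 3 were called higher, 10.7% in all, while 7.79% of all tested genes were called at their brightest probe. Their median log2 fold change was 0.00, and 44 had negative and 40 positive values. The share called in the lists is described here and was not tested against other genes. The counts of unadjusted p under 0.05 given for each list stand beside 44.6% of all tested genes. The groups did not overlap at 46 of the 84 genes (54.8%), against 46.3% of all tested genes. By list this share ran from 23.1% for the reported binding partners to 73.7% for the Hippo list, and it was not tested.

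The Hippo list held genes of the kinase cascade that restrains the coactivators Yap1 and Taz. It also held these coactivators, Tead factors and genes that oppose the kinases, such as Slmap. Its counts are therefore not a direction of the cascade. Of its 19 tested genes, 3 were called lower and 1 was called higher. Negative values were seen in 15 genes, and the median log2 fold change was -0.15. An unadjusted limma p under 0.05 was reached by 11 lower and 2 higher genes. Stk4, the Mst1 kinase that the SARAH hook of the classical Rassf proteins binds, fell from log2 intensities of 8.67, 8.62 and 8.53 in the controls to 8.15, 8.22 and 8.14 with moR-21. This was a difference of -0.44 on the log2 scale (SE 0.0501, limma adjusted p = 1.3e-05), 1.36-fold lower, with all moR-21 samples below all controls. Limd1, a LIM protein that binds the Lats kinases, fell by 0.47 on the log2 scale (SE 0.0498, limma adjusted p = 7.17e-06), and with normexp background correction by 0.75.

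The remaining calls of the Hippo list were less stable. Yap1, the coactivator at the end of the cascade, was at 8.40, 8.30 and 8.55 in the controls and 8.74, 8.94 and 8.76 with moR-21, a rise of 0.40 on the log2 scale (SE 0.0675, limma adjusted p = 0.000425). It was called in 12 of 19 alternatives, and not without control sample 1 (0.39), control sample 2 (0.34) or moR-21 sample 2 (0.33). Slmap, a subunit of the phosphatase complex that opposes the Mst kinases, fell by 0.38 (SE 0.0682, limma adjusted p = 0.000606) at its brightest probe, and its other tested probe was at 0.04. Its call was met in 8 of 19 alternatives and was lost without control sample 1 (-0.35), control sample 3 (-0.33), moR-21 sample 1 (-0.35) or moR-21 sample 2 (-0.36). The mean of its probes was -0.17.

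Stk3 (Mst2) and Sav1 (the SARAH scaffold of the Mst kinases), which were singled out as Rassf binding genes after their values were seen, were not called. Stk3 was at 7.41, 7.43 and 7.59 against 7.33, 7.24 and 7.20, a log2 fold change of -0.22 (SE 0.0565, limma adjusted p = 0.00784). Sav1 was at 9.38, 9.30 and 9.33 against 9.61, 9.50 and 9.43, a log2 fold change of 0.18 (SE 0.0535, limma adjusted p = 0.0188). Stk3 and Stk4 thus had negative values without overlap of the groups, and Sav1 a positive value without overlap.

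In the signature of Yap1 and Tead target genes, 0 of 15 tested genes were called lower and 1 was called higher, with a median log2 fold change of 0.08, positive values in 11 genes and an unadjusted limma p under 0.05 for 2 lower and 6 higher genes. The called gene was Rbms3, an RNA-binding protein gene, which rose by 0.43 (SE 0.0487, limma adjusted p = 1.34e-05). Gadd45a, a stress response gene, was at 0.33 (limma adjusted p = 0.000254) at its brightest probe and was called at its dimmer probe with 0.41. Ccdc80, a matrix protein gene, was at 0.25 (limma adjusted p = 0.0011).

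The list of Ras and Rap GTPases holds partners of the Ras association domain and also relatives such as Ralb and Rheb. None of its 15 tested genes was called in limma, while the groups did not overlap at 9 of them, against 46.3% of all tested genes. An unadjusted limma p under 0.05 was reached by 3 with negative and 5 with positive values. The largest values were those of Ralb at 0.34 (limma adjusted p = 0.000175), Rheb, the GTPase that activates mTORC1, at 0.28 (limma adjusted p = 0.000479) and Rap2b at 0.27 (limma adjusted p = 0.00136), all under the fold cutoff. Nor was any of the 7 tested exchange factors and GTPase activating proteins of Ras called in limma, 2 with negative and 2 with positive values having an unadjusted p under 0.05. They include Spred1 at 0.27 (limma adjusted p = 0.00191), Dab2ip at 0.23 (limma adjusted p = 0.00904) and Rasgrp3 at -0.17 (limma adjusted p = 0.0164), the 3 of largest size.

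In the list of other Ras effectors, which also holds related genes not shown to bind Ras itself, 3 of 15 tested genes were called lower in limma. None was called higher, and the median log2 fold change was -0.02. An unadjusted limma p under 0.05 was reached by 5 lower and 2 higher genes. Araf, a Raf kinase, fell from 10.42, 10.48 and 10.30 to 9.90, 9.87 and 9.98, by 0.48 on the log2 scale (SE 0.0542, limma adjusted p = 1.17e-05), and its other probe was at -0.29. Pik3cb, a catalytic subunit of phosphoinositide 3-kinase, fell from 7.81, 7.83 and 7.65 to 7.33, 7.25 and 7.33, by 0.46 (SE 0.0554, limma adjusted p = 2.07e-05), and with normexp background correction by 0.84. Rin2, a Ras-binding exchange factor of Rab5, fell by 0.45 (SE 0.0464, limma adjusted p = 5.55e-06) at its brightest probe, while its other tested probe was at -0.01. The mean of the Rin2 probes was -0.23 and was not called.

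Of the reported binding partners of Rassf proteins outside these pathways, 0 of 13 tested genes were called lower and 1 was called higher in limma, while 2 lower and 3 higher genes had an unadjusted p under 0.05. Trp53, the p53 gene, rose from 9.26, 9.40 and 9.38 to 9.79, 9.75 and 9.73, by 0.41 on the log2 scale (SE 0.0496, limma adjusted p = 2.33e-05). It was called in 16 of 19 alternatives. Without control sample 1 it was 0.37, under the fold cutoff, with normexp background correction it was 0.46 at a limma adjusted p of 0.00202, and it was not called at a fold cutoff of 1.5. Pawr, a pro-apoptotic protein gene, was at -0.32 (limma adjusted p = 0.000149), the repair gene Xpa at -0.17 (limma adjusted p = 0.0104) and the apoptosis gene Bax at 0.17 (limma adjusted p = 0.066).

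**Figure D3:**
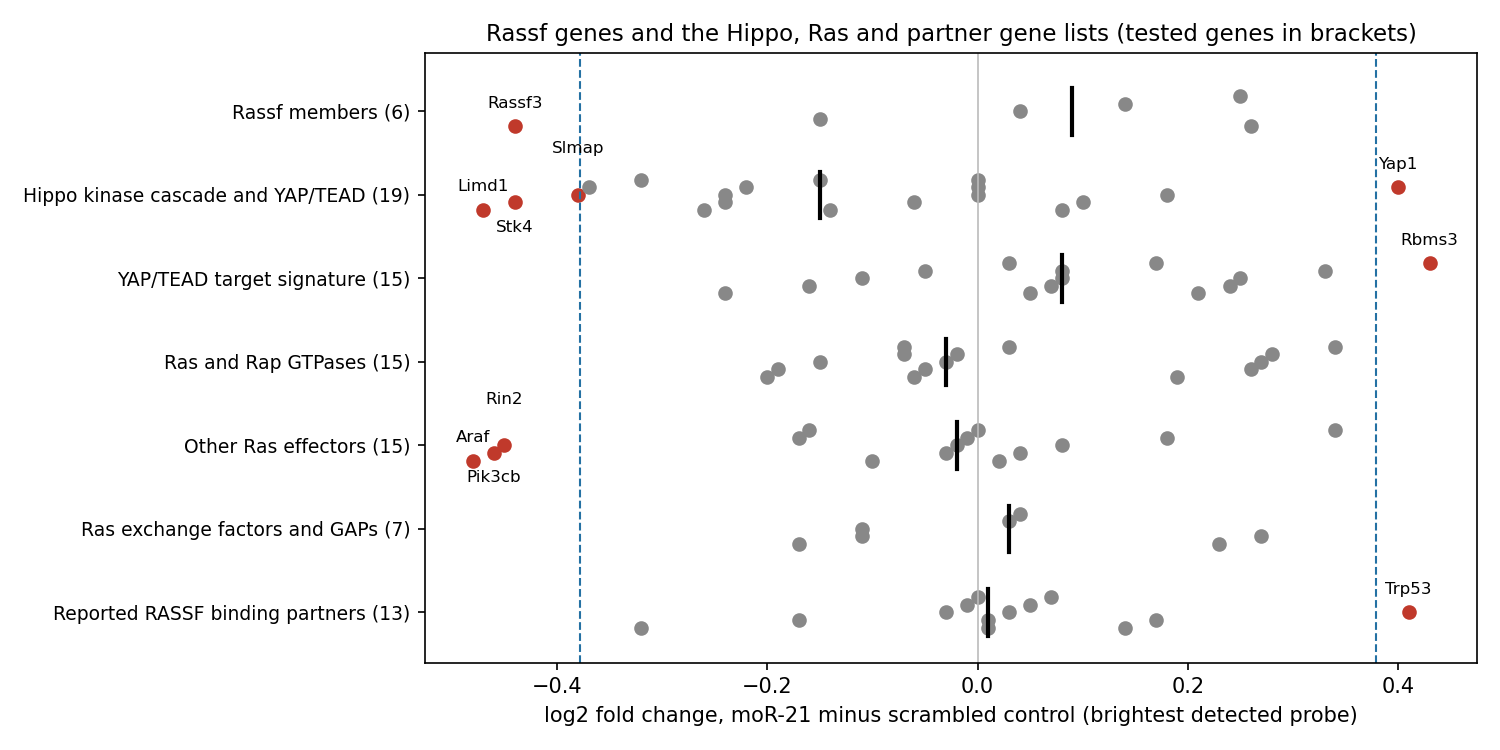
Log2 fold change (moR-21 minus scrambled control, brightest detected probe) of each tested gene of the Rassf family and of 6 gene lists, with called genes in red and named, a black bar at each list's median and dashed lines at the fold cutoff of 1.3; the vertical offset of points within a list has no meaning. Stk4 at -0.44 and Pik3cb at -0.46 sit beside Rassf3 at -0.44, while Yap1 at 0.40, Rbms3 at 0.43 and Trp53 at 0.41 are the genes past the cutoff on the right.

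Among the probes whose normalized log2 values followed Rassf3 most closely over the 6 samples were those of Pik3cb (Pearson r = 0.9993), the ubiquitin ligase gene Syvn1 (r = 0.9984), the procollagen peptidase gene Adamts2 (r = 0.998) and the lysosomal sulfatase gene Arsb (r = 0.9972). Their log2 fold changes were -0.46, -0.38, -0.24 and -0.37, of which the values of Pik3cb and Syvn1 were called lower. The 6 points fall into the treatment groups, and 549 of the 11650 other tested probes had r over 0.95, so the closeness is a description.

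Fixed marker lists were read for the cells that an aortic explant can hold. Of 8 smooth muscle markers 3 were detected on all arrays (Acta2, Smtn and Des), and 3, Myh11, Cnn1 and Myocd, were detected on none. The summed intensity of that list was 9874 to 10941 in the controls and 13309 to 14144 with moR-21, and 1 of its genes, Acta2, was called higher (0.40 on the log2 scale). Of 8 endothelial markers 6 were detected on no array, Pecam1, Cdh5, Kdr and Tek among them. The other 2, Egfl7 and Vwf, were detected on all arrays. Their mean intensities were 302.5 and 118.1 in the controls and 287.3 and 123.9 with moR-21, and neither was called. The summed intensity of the endothelial list was 999 to 1070 against 1002 to 1054. Of 6 macrophage markers 4 were detected on none, 1 was called higher (Lyz2 at 0.48), and the sums were 644 to 706 against 711 to 751. Of 4 mesothelial markers 2 were detected on none, 1 was called lower (Upk3b at -1.24), and the sums were 910 to 1109 against 582 to 624. The sums of the smooth muscle, macrophage and mesothelial lists differed between the groups mainly through 1 probe each, Acta2, Lyz2 and Upk3b. The other detected smooth muscle markers had log2 fold changes of 0.20 (Tagln, 4 arrays), 0.05 (Lmod1, 3 arrays), -0.05 (Smtn) and -0.38 (Des). Csf1r of the macrophage list was at -0.01 and Krt19 of the mesothelial list at -0.13. None of these genes was called. The part of these markers in the Rassf results was not tested.

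**Figure D4:**
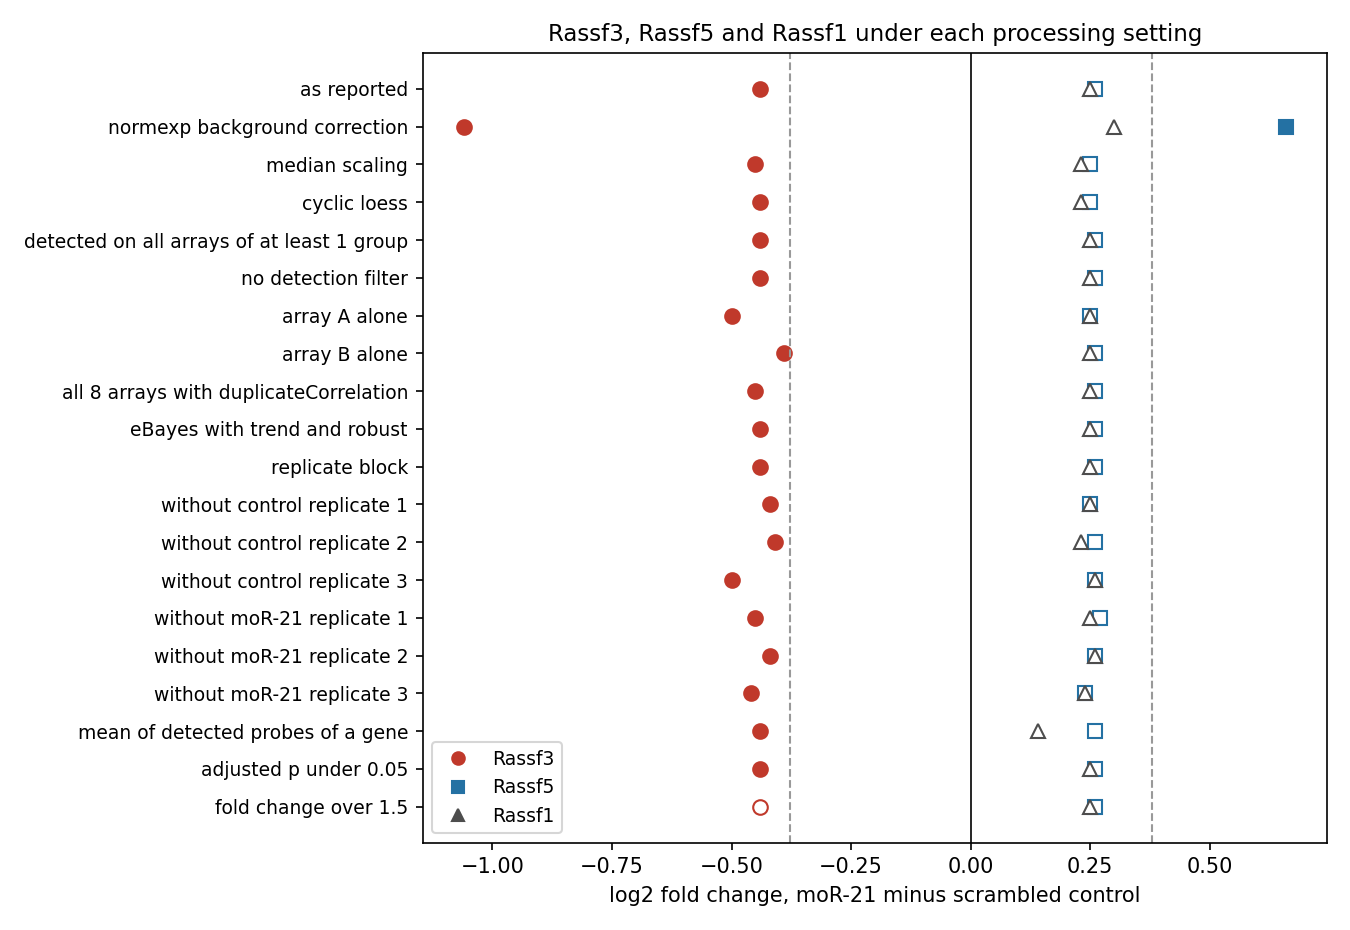
Log2 fold change (moR-21 minus scrambled control) of Rassf3 (red circles), Rassf5 (blue squares) and Rassf1 (grey triangles) as reported and under each of 19 alternative settings, with filled symbols where the gene was called, a solid line at 0 and dashed lines at the fold cutoff of 1.3. Rassf3 stayed between -0.50 and -0.39 except with normexp background correction, where it was -1.06 and Rassf5 was 0.66.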

How the data were processed

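Illumina BeadChip data of 6 samples on 8 arrays were analysed. The authors deposited a non-normalized probe intensity for every array, and no background step is stated for it. Each intensity has a deposited detection p-value of its probe. The array design is named in more than one way in the sources, and the submitters' processing notes name lumi. All columns were assigned to a sample by name, and 0 were left unassigned. Gene symbols were those of the table, with older symbols matched through synonyms.

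Quantile normalization over the 8 arrays was followed by the log2 transform, without background correction, and arrays of one sample were averaged. The limma package (version 3.58.1, R 4.3.3) compared 3 with 3 samples over 11651 probes (detection p-value under 0.01 on 1 or more arrays), with Benjamini-Hochberg adjustment over all of them. Calls used cutoffs of 1.3 in fold and 0.002 in adjusted p. The brightest detected probe stood for its gene. The fit was tested on simulated data. Sequences and figures were made with Python 3.11.15 (numpy 2.4.6, matplotlib 3.10.9).

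The text names every probe of each member, all called genes of each list or, where fewer than 3 were called, those with the largest absolute log2 fold change up to 3, the 5 probes most correlated with Rassf3 (1 of them is not reported here), and markers mainly as counts. The members, lists and tests were chosen with earlier results of these data known. The alternatives covered background correction, normalization, the detection filter, the repeat arrays, the empirical Bayes setting, a block for the replicate number, leaving out each sample, the probe of a gene and both cutoffs. The number of arrays limits the precision.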

Additional observations from a re-analysis of the deposited data

How the results depend on the processing

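None of the 6 tested members and of the 9 called list genes, the genes run under the alternatives, reversed its direction (19 alternatives each, 18 for Rassf7). Rassf3 was called in 18 of them, from -1.06 to -0.39, and was not called at a fold cutoff of 1.5, where it stayed at -0.44, 0 members were called lower, 0 list genes were called lower, 0 were called higher (0 in all) and 260 of all tested probes were called, against 811 as reported. The calls of Rassf3 and of the 9 list genes are lost there because their measured folds are below that cutoff. With normexp background correction 1 member, Rassf5, was called higher and 1 list gene was called higher in place of 3. Over the fits that left out 1 sample, the list genes called higher numbered 1 to 4, with 1 when control sample 1 was left out, and the list genes called in all numbered 7 to 11. Elsewhere the probes called ranged from 748 to 928, or 579 genes with the mean of a gene's probes. Of the list genes named as called, 143 results under the alternatives kept their side of the threshold and 28 lost the call. With the replicate block the Rassf3 value was -0.44 (limma adjusted p = 3.46e-06), 9 list genes and 815 probes were called, and no member gained or lost a call. Whether same-numbered samples were paired is not given by their titles. Their deviations correlated at 0.187, 0.0441 and 0.0597, all positive, while those of differently numbered samples ran from -0.129 to 0.0693. The highest of these, moR-21 sample 2 with control sample 3, was above the value of moR-21 sample 2 with its own number. These small correlations were not tested and do not settle a pairing. The signal over background limits Rassf4, Rassf7 and Rassf8, and the Rassf3 level with moR-21.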
